A study of Mus musculus with 14 samples.

Results

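The 9 genes described here encode C-type lectin receptors, cell-surface proteins that carry a fold first known from calcium-dependent sugar binding. They were chosen by gene name (Clec4a1, Clec4a2, Clec4a3, Clec4d, Clec4e, Clec4n, Clec7a, Clec10a and Clec12a), and all 9 were found among the 43432 genes of the deposited table. The rule uses gene names and no measured value, although the members were chosen with earlier results of these data known. All 9 passed the filter on low values, which kept 17390 genes. In SiglecF+ CD11c+ lung cells after bleomycin, 3 of the 9 passed the test in at least 1 comparison. The share of all tested genes that passed in at least 1 comparison was not computed, so this count has no background. Each comparison with a called receptor held 1 of the 9, where 0.748% to 2.29% of all tested genes passed in that direction. Clec4a1 was higher in MHCII-high than in MHCII-low cells at both times. Clec4n was higher in MHCII-low cells 2 weeks after bleomycin than in control cells. Clec4e was lower at 4 weeks than at 2 weeks in both MHCII-high and MHCII-low cells.

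The data are 14 RNA-seq libraries of sorted lung cells from 129S1 mice, all male and 10 to 12 weeks old. The sort required SiglecF, which binds sialic acid, and the integrin subunit CD11c, a pair of surface proteins that marks alveolar macrophages, and divided the cells into high and low for MHC class II (MHCII), the molecule that presents peptides to helper T cells. Bleomycin, a DNA-damaging drug that injures the lung and leads to fibrosis, was given into the trachea at a labelled dose of 3 U/k, and control mice received water by the same route. Each MHCII class was collected at 2 weeks and at 4 weeks from treated mice (3 libraries per class and time), and the controls are 2 libraries of MHCII-low cells, labelled 1 and 3. Control cells high for MHCII were not analysed here, so every comparison with control is one of MHCII-low cells. The control mice carry no time after treatment in the labels. The labels do not say whether the libraries of a group came from separate mice, so p-values measure only the spread between these libraries, which may be technical.

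C-type lectin receptors let macrophages, dendritic cells and neutrophils sense microbes and damaged cells, and they signal in contrasting ways. Clec7a (Dectin-1) binds beta-glucan of fungal walls and recruits the kinase Syk through a tyrosine motif in its own tail. Clec4n (Dectin-2), Clec4e (Mincle) and Clec4d (MCL) have no such motif and pair with the adaptor chain Fcer1g, which recruits Syk in their place. Downstream of Syk, Card9 with Bcl10 and Malt1 leads to NF-kB and to cytokine genes. Clec4a2 (DCIR) and Clec12a (MICL) carry inhibitory tyrosine motifs that recruit phosphatases such as Ptpn6. Clec4a1 and Clec4a3 are close relatives of Clec4a2, and Clec10a (MGL1) is an endocytic receptor for galactose and N-acetylgalactosamine.

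Of the 9 receptors, 6 lie in 1 stretch of mouse chromosome 6, and 4 promoter windows from it are printed for the members at its ends and their nearest neighbours: Clec4a1, which was called by MHCII level, beside Clec4a3, and Clec4e, which was called by time, beside Clec4d. Each window is the 250 bases before an annotated start, 5′ to 3′ on the gene's strand, from RefSeq on GRCm38.p6, the C57BL/6J reference and not the 129S1 strain of these mice. Capitals mark matches to the motifs searched. The windows are chr6:122921598-122921847 for Clec4a1, chr6:122952265-122952514 for Clec4a3 and chr6:123261857-123262106 for Clec4d, all on the forward strand, and chr6:123289872-123290121 for Clec4e on the reverse strand.
Clec4a1: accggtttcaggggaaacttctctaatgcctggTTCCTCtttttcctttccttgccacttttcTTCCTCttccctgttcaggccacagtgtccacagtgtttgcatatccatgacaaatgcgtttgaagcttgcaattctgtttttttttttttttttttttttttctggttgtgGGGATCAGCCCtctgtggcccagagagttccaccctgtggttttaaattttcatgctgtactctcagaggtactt
Clec4a3: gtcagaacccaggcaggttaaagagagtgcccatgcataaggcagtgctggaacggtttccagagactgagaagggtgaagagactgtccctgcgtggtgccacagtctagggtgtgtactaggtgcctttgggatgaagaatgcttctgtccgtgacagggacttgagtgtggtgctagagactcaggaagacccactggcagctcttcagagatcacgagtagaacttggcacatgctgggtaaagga
Clec4d: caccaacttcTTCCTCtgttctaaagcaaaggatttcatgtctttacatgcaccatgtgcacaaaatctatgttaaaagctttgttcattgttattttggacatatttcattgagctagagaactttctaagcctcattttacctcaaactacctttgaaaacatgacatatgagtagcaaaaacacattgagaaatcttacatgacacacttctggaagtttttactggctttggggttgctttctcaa
Clec4e: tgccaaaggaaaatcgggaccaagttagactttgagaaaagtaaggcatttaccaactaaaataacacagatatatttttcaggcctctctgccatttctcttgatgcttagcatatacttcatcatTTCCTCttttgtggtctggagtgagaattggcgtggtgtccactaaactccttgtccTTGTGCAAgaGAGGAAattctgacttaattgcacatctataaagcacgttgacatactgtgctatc

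Both strands were searched for 5 motifs: PU.1 (GAGGAA), C/EBP (TTGCNNAA), NF-kB (GGG, any 5 bases, CC), the interferon-stimulated response element (GAAA, any 2 bases, GAAA) and AP-1 (TGANTCA). Over 32536 distinct windows of the same length, PU.1 was found in 23.4%, C/EBP in 9.57%, NF-kB in 46.0%, the interferon element in 2.98% and AP-1 in 6.73%. The Clec4e window held PU.1 letters 123 and 56 bases before the start and, between them, C/EBP letters 66 bases before it. The Clec4a1 window held PU.1 letters at 217 and 187 bases and 2 overlapping NF-kB matches at 75 and 74 bases. In the Clec4d window a PU.1 match stood 240 bases before the start, and the Clec4a3 window held none of the 5 motifs. A second annotated start of Clec4a3 had a PU.1 match 50 bases before it. A match describes the letters only. Of the 9 receptors 7 had a window, and Clec4n and Clec10a had none.

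Libraries held 15106415 to 88059630 reads recovered from the normalized values, and mitochondrial ribosomal RNA took 3.12% to 28.99% of them. The MHC class II gene H2-Aa was at 16282.6 to 38503.3 normalized counts in the 6 MHCII-high libraries and at 127.8 to 1810.4 in the 8 MHCII-low libraries, as sorted. Siglecf was read in all libraries, at 3056.4 to 4358.1 in MHCII-high and 6460.9 to 9550.6 in MHCII-low cells, and all 8 resident alveolar macrophage markers had reads in every library. By the test, 5 of these 8 were lower in MHCII-high than in MHCII-low cells at 2 weeks, among them Marco, Krt19, Siglecf and Fabp1. At 4 weeks 3 were lower (Siglecf, Krt19 and Marco), and these calls held without 4-week MHCII-high replicate 3. None of the 8 was higher. Of all tested genes, 499 passed in either direction at 2 weeks and 434 at 4 weeks. On the second principal component of all tested genes (12.3% of the variance), 1 library was far from the rest, 4-week MHCII-high replicate 3, which scored 146.4 against a range of -73.5 to 44.7 for the remaining libraries. Calls in comparisons that use that library are given with and without it.

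To set the receptors side by side, normalized counts were divided by exon length in kb. Clec7a was the most abundant, with a median over the 14 libraries of 6860 normalized counts per kb (3620 to 9570), followed by Clec4n at 5300 (3330 to 8530) and Clec4a3 at 3260 (2330 to 4200). These 3 lay above 98.2% or more of the tested genes on this scale. Clec12a (median 537), Clec4a2 (438), Clec4e (227) and Clec4d (216 normalized counts per kb) formed the middle of the order. Clec4a1 was at 60.8, in the middle of all tested genes, with 49.5% of them below it, and Clec10a was last at 4.71. The only neighbours in the order whose libraries did not overlap were Clec4a3 and Clec12a, 6.07-fold apart in their medians. Between any other neighbouring receptors the ranges overlapped. Clec4a1 nevertheless lay above Clec10a within each of the 14 libraries, with medians 12.9-fold apart. The order of the remaining overlapping neighbours is not separated.

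**Figure D1:**
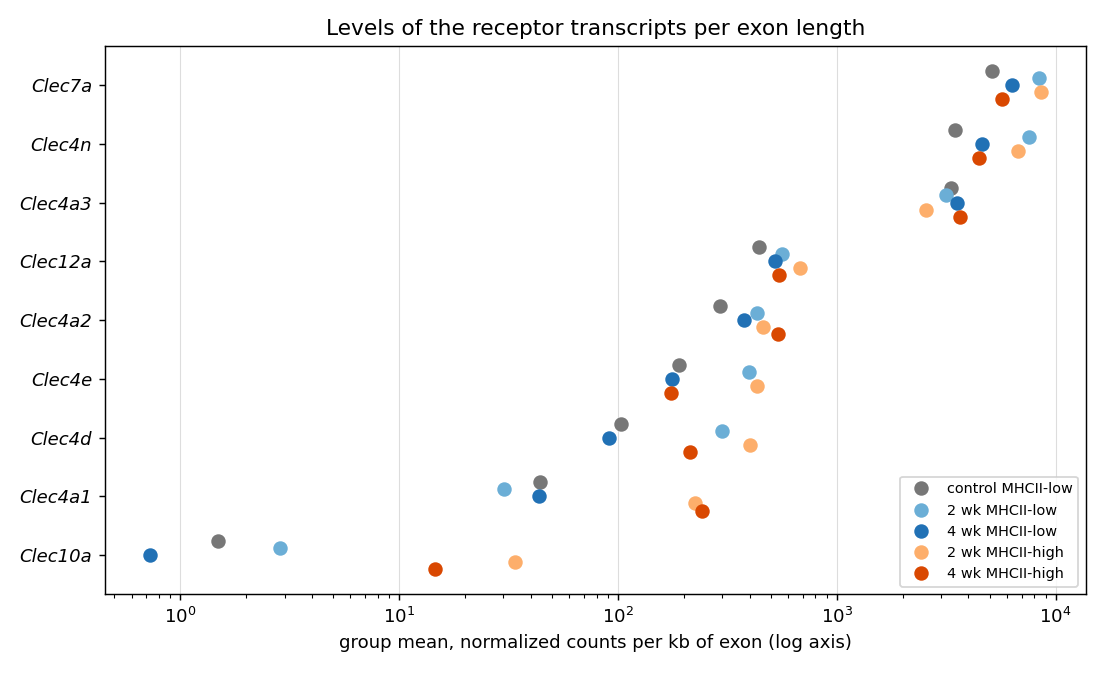
Mean normalized counts per kb of exon (log axis) for each of the 9 receptors, 1 point per group: control MHCII-low, and MHCII-low and MHCII-high cells 2 and 4 weeks after bleomycin. The means of Clec7a, Clec4n and Clec4a3 lie above those of the other receptors in all 5 groups, and those of Clec10a lie lowest.

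The spread between libraries was unequal too. Between the lowest and the highest library, Clec4a3 differed 1.81-fold and Clec12a 1.97-fold, while Clec4d differed 8.52-fold and Clec4a1 21.2-fold. The inhibitory receptor Clec12a and the DCIR relative Clec4a3 had the narrowest ranges of the 9. Clec10a was listed at 0 in 3 libraries, so no such ratio is given for it.

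The receptors that pair with Fcer1g are described first. Clec4e, which binds mycobacterial glycolipid and a protein released by dying cells, stood at 1008.5 and 873 normalized counts in control libraries 1 and 3. In MHCII-low cells it was 2076.3, 2175.2 and 1654 at 2 weeks and 566, 814.7 and 1247.4 at 4 weeks. In MHCII-high cells it was 1919.2, 1754.7 and 2746.3 at 2 weeks and 805.4, 1001 and 787.5 at 4 weeks. All 6 libraries of the 2-week cells, whatever their MHCII level, lay above all 6 of the 4-week cells and above both controls. Of all tested genes, 1.05% had their 6 libraries of the 2-week cells above the 6 of the 4-week cells, and Clec4e was the only receptor among them. The share that also lay above both controls was not computed. From 2 to 4 weeks Clec4e fell by 1.23 ± 0.25 (log2 change ± SE) in MHCII-low cells (2.35-fold, adjusted p 0.015) and by 1.29 ± 0.25 in MHCII-high cells (2.44-fold, adjusted p 0.015). In these comparisons 0.748% and 0.759% of all tested genes passed in the lower direction, 1 of the 9 receptors in each. The 2-week MHCII-low cells were higher than control by 1.06 ± 0.28 with no overlap, at an adjusted p of 0.059, which misses the threshold. That comparison passed in some alternatives, among them DESeq2 (1.08, adjusted p 0.01).

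The Clec4e call in MHCII-low cells rests on few libraries. It was lost without 4-week replicate 1 (-0.95, adjusted p 0.12) or replicate 2 (-1.22, 0.070), and without 2-week replicate 1 (-1.19, 0.078) or replicate 2 (-1.15, 0.094). The MHCII-high call was lost only without 2-week replicate 3 (-1.09, adjusted p 0.081) and held without 4-week replicate 3 (-1.22, adjusted p 0.03).

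Clec4d, which forms complexes with Mincle on the cell surface, was at 154.6 and 120.5 normalized counts in the controls. It was at 434.1, 447.5 and 314.4 in 2-week and 72, 96.1 and 196.2 in 4-week MHCII-low cells. MHCII-high cells had 476.5, 521 and 613.4 at 2 weeks and 262.2, 125.5 and 472.2 at 4 weeks. As for Clec4e, each 2-week group lay above the 4-week group of its MHCII level, but the 4-week MHCII-high libraries were wide apart, and the highest of them exceeded all 2-week MHCII-low libraries. In MHCII-low cells Clec4d differed by 1.52 ± 0.50 between 2 weeks and control (adjusted p 0.15) and by -1.82 ± 0.45 between 4 and 2 weeks (adjusted p 0.058), both with no overlap. In MHCII-high cells the difference from 2 to 4 weeks was -1.09 ± 0.45 (adjusted p 0.26), again with no overlap, and -1.55 without 4-week replicate 3 (adjusted p 0.082). None of the 3 passed the test.

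Clec4n, a receptor for fungal mannan, was far more abundant. Its controls had 4727.8 and 5121.5 normalized counts. MHCII-low cells had 11840.4, 10194.4 and 10295.9 at 2 weeks and 5171.1, 5999.1 and 8488.8 at 4 weeks. MHCII-high cells had 8148.6, 8399.9 and 12115.4 at 2 weeks and 6116.7, 5998.1 and 6902.3 at 4 weeks. Both controls, which are MHCII-low, lay below all 12 libraries from bleomycin-treated mice, MHCII-high ones included. The margin was narrow, 5121.5 against 5171.1, and the share of all tested genes with this arrangement was not computed. In MHCII-low cells at 2 weeks Clec4n rose by 1.13 ± 0.20 over control (2.18-fold, 95% interval 0.70 to 1.55, adjusted p 0.003). It was the single receptor of 9 to pass in that comparison, in which 1.48% of all tested genes passed in the higher direction. Without control replicate 1 the value was 1.07 and the call was lost (adjusted p 0.07). From 2 to 4 weeks Clec4n differed by -0.75 ± 0.18 in MHCII-low cells (adjusted p 0.059) and by -0.57 ± 0.18 in MHCII-high cells (adjusted p 0.14), with no overlap in either. At 4 weeks MHCII-low cells still lay above control without overlap, by 0.38 ± 0.20, at an adjusted p of 0.85.

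Clec7a, which carries its own Syk-recruiting motif, had 11282.2 and 12050.9 normalized counts in the controls. MHCII-low cells had 21893.2, 20463.6 and 15270.7 at 2 weeks and 8288.3, 17463 and 17648.2 at 4 weeks. MHCII-high cells had 21281.3, 16087.9 and 21458.4 at 2 weeks and 13192.9, 14293.2 and 11466.5 at 4 weeks. The 2-week cells of both MHCII classes lay above the controls, which are MHCII-low. The 4-week MHCII-low libraries were divided, with replicate 1 below the controls and the others above. Clec7a differed from control by 0.70 ± 0.25 in 2-week MHCII-low cells (adjusted p 0.21). From 2 to 4 weeks it differed by -0.59 ± 0.23 in MHCII-high cells (adjusted p 0.23), with no overlap, and by -0.47 ± 0.23 in MHCII-low cells (adjusted p 0.66), where the groups overlapped. None passed the test. Clec7a is annotated as a polymorphic pseudogene in the deposited table and in GENCODE.

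**Figure D2:**
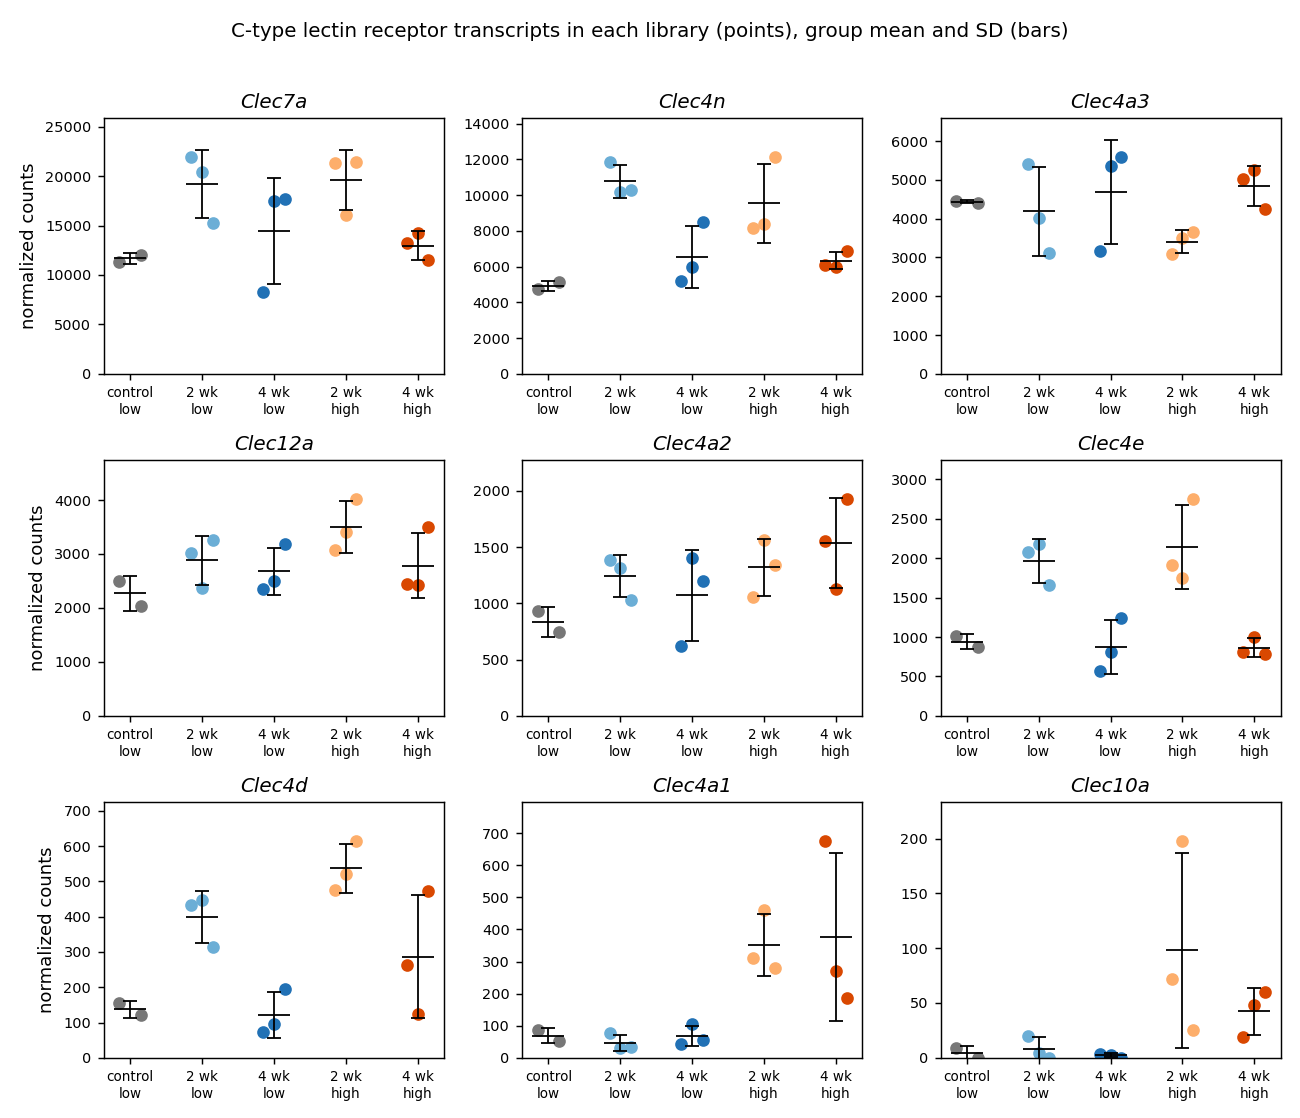
Normalized counts (linear axis from 0) of each receptor in each of the 14 libraries (points), by group, with the group mean and SD as bars. Clec4e shows all 2-week libraries above all 4-week and control libraries, and Clec4a1 shows the 6 MHCII-high libraries above the 8 MHCII-low libraries.

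The inhibitory receptors passed in no comparison. Clec4a2 was at 928.3 and 743 normalized counts in the controls, at 1387.2, 1310.5 and 1030.7 in 2-week and at 621.7, 1400 and 1197.3 in 4-week MHCII-low cells. MHCII-high cells had 1057.9, 1566.3 and 1338.8 at 2 weeks and 1552.6, 1129.6 and 1924.3 at 4 weeks. The 2-week MHCII-low libraries lay above both controls (0.57 ± 0.31, adjusted p 0.47), and all other pairs of groups that were compared overlapped. Clec12a, which senses uric acid crystals from dead cells, was at 2501.6 and 2036.9 in the controls, at 3009.3, 2369.5 and 3264 in 2-week and at 2351.4, 2507.9 and 3176.1 in 4-week MHCII-low cells. MHCII-high cells had 3077.9, 3410.3 and 4011.2 at 2 weeks and 2441.3, 2425.6 and 3490.7 at 4 weeks. Its differences ran from -0.34 (4 against 2 weeks, MHCII-high) to 0.34 (2 weeks against control), and the groups overlapped in every comparison.

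The DCIR relatives Clec4a1 and Clec4a3 start 30.7 kb apart and behaved unlike each other. Clec4a1 was at 85.7 and 51.7 normalized counts in the controls. MHCII-low cells had 76.1, 31.8 and 32.5 at 2 weeks and 43.7, 103.9 and 56.5 at 4 weeks. MHCII-high cells had 312.3, 461.2 and 278.9 at 2 weeks and 674.3, 269.9 and 186.2 at 4 weeks. The lowest of the 6 MHCII-high libraries (186.2) exceeded the highest of the 8 MHCII-low libraries (103.9), an arrangement found in 1.79% of all tested genes. Clec4a1 was higher in MHCII-high cells by 2.97 ± 0.56 at 2 weeks (7.82-fold, 95% interval 1.80 to 4.14, adjusted p 0.0041) and by 2.33 ± 0.56 at 4 weeks (5.03-fold, 95% interval 1.16 to 3.50, adjusted p 0.027). In these comparisons 2.29% and 1.96% of all tested genes passed in the higher direction, 1 of the 9 receptors in each.

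The 2-week call for Clec4a1 held under all 23 alternatives, with values from 2.64 to 3.37. The 4-week call was lost without MHCII-high replicate 1 (1.80, adjusted p 0.11), without MHCII-low replicate 1 (2.06, 0.13) or replicate 3 (2.25, 0.10), and with the GC trend removed (2.28, 0.064), and it held without MHCII-high replicate 3 (2.73, adjusted p 0.014). Without a filter on low values its adjusted p was 0.056. The counting program's treatment of reads shared between Clec4a1, Clec4a2, Clec4a3 and Clec4a4 is not given in the sources used here, so the division of reads among these close relatives is uncertain.

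Clec4a3 was at 4457.5 and 4403.5 normalized counts in the controls, at 5407.9, 4027.1 and 3125.8 in 2-week and at 3156.7, 5362.8 and 5578.2 in 4-week MHCII-low cells. MHCII-high cells had 3086.1, 3494.6 and 3644.6 at 2 weeks and 5034.5, 5245 and 4246.5 at 4 weeks. Among MHCII-high cells the 4-week libraries lay above the 2-week libraries, the opposite direction to Clec4e, Clec4d, Clec4n and Clec7a, by 0.50 ± 0.21 with an adjusted p of 0.27. High and low cells overlapped at both times (-0.26 ± 0.21 at 2 weeks, adjusted p 0.61).

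Clec10a was close to the limit of detection in MHCII-low cells. It had 8.6 and 0 normalized counts in the controls, 20.1, 4.8 and 0 in 2-week and 3.4, 2.9 and 0 in 4-week MHCII-low cells. MHCII-high cells had 71.5, 197.4 and 25.2 at 2 weeks and 18.7, 48.6 and 59.6 at 4 weeks. In each week the MHCII-high libraries lay above the MHCII-low libraries, although 4-week MHCII-high replicate 1, at 9 reads, was below 2-week MHCII-low replicate 1, also at 9 reads. A count of 0 allows up to 3 reads, which is 2.58, 1.65 and 3.2 normalized counts in the libraries at 0. The differences of 3.86 ± 1.26 at 2 weeks (adjusted p 0.11) and 3.92 ± 1.26 at 4 weeks (adjusted p 0.12) did not pass, and the 95% intervals, 1.24 to 6.49 and 1.29 to 6.54, are wide at this depth. Without 4-week MHCII-high replicate 3 the 4-week value was 3.60 (adjusted p 0.22), and DESeq2 called it (4.30, adjusted p 0.04). Groups with libraries at 0 make these fitted values depend on the added count of 1.

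Markers of other cells moved with MHCII level and with time, and are given here because Clec4a1 and Clec10a are known to be expressed in dendritic cells and monocytes too. The summed level of 8 dendritic cell markers was 228.1 to 647.5 normalized counts in the MHCII-low groups and 2141.6 to 3580.1 in the MHCII-high groups. By the test 4 of 8 were higher at 2 weeks and 5 of 8 at 4 weeks, where 2.29% and 1.96% of all tested genes were. The largest part of the MHCII-high sum was Irf4, at 1246.7 to 2410 at 2 weeks and 1267 to 1486 at 4 weeks. Flt3, which defines dendritic cells, was at 91.7 to 280.8 in MHCII-high and at most 17.9 in MHCII-low libraries, while Xcr1 and Itgae overlapped between the MHCII classes. Zbtb46 was not called, and its MHCII-high libraries (171.2 to 277.3 at 2 weeks, 82.8 to 302.8 at 4 weeks) overlapped the controls (100.9 to 176.5). Cd209a was at 0 in all MHCII-low libraries after bleomycin, at 0 to 3.1 in controls and, in MHCII-high libraries, at 0 to 1.5 at 2 weeks and 8.5 to 139.6 at 4 weeks. The 8 monocyte and monocyte-derived macrophage markers summed to 50084.1 to 55787.9 in 2-week and 29672 to 36824.1 in 4-week MHCII-high cells. In MHCII-low cells they summed to 15268.7 to 17616.8 in controls, 27094.2 to 31388.8 at 2 weeks and 16531.5 to 20464.8 at 4 weeks. As for Clec4e, this sum was higher at 2 weeks than at 4, and so were Clec4d and Clec4n, whose differences did not pass the test. Most of the sum in MHCII-low cells was Csf1r alone. It was at 12492.1 to 15748.5 in controls, 23086.2 to 24958.5 at 2 weeks and 14229.6 to 18170 at 4 weeks. Ly6c2, which defines inflammatory monocytes, did not exceed 43.4 in any library. The part of dendritic and monocyte-derived cells in the receptor values was not tested, and in bulk samples fewer cells of a type and less RNA per cell cannot be told apart.

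Neutrophils also express Clec4e, Clec4d and Clec7a. The 8 neutrophil markers summed to 4248.5 to 7856.9 normalized counts in controls, 8385.4 to 10587.4 in 2-week and 5251.9 to 6809 in 4-week MHCII-low cells, and to 7043.3 to 10000.8 and 4617.8 to 7580 in 2-week and 4-week MHCII-high cells. Most of the sum was Cxcr2 and Csf3r. In no library did S100a9 exceed 153.3, S100a8 exceed 396.5 or Mpo exceed 99.9, and Ly6g was at 0 to 22, with 0 in all 2-week MHCII-high and all 4-week MHCII-low libraries. In 2-week MHCII-high libraries Ngp reached 294.3 and Retnlg 213.5, against at most 10.4 and 2.1 in 4-week MHCII-high libraries. Cxcr2 passed the test higher at 2 weeks than in control (2.36, adjusted p 0.0019) and lower at 4 than at 2 weeks in MHCII-low (-2.37, adjusted p 0.0011) and MHCII-high cells (-1.55, adjusted p 0.041). Without 4-week MHCII-high replicate 3 the latter was -0.99 and not called (adjusted p 0.10). The part of neutrophils in the Clec4e values was not tested.

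Over all 9 receptors, the comparisons by time and by MHCII level read as follows. Between 2-week MHCII-low cells and control, 5 receptors (Clec4n, Clec4e, Clec4d, Clec7a and Clec4a2) had higher libraries with no overlap, where 13.7% of all tested genes did, and the median log2 difference was 0.68 over the 9 receptors and -0.09 over all tested genes. At 4 weeks 1 receptor (Clec4n) was without overlap, where 11.4% of tested genes were in that direction, no receptor passed, 0.046% of tested genes passed, and the differences ran from -0.30 for Clec4d to 0.38 for Clec4n. With limma no receptor had an unadjusted p under 0.05 at 4 weeks, and edgeR and DESeq2 also called 0 of the 9. Both comparisons use the same 2 control libraries.

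From 2 to 4 weeks, 3 receptors (Clec4e, Clec4d and Clec4n) were lower without overlap in MHCII-low cells, where 6.76% of all tested genes were, with a median of -0.47 over the receptors and 0.03 over all tested genes. In MHCII-high cells 4 receptors (the same 3 and Clec7a) were lower without overlap, where 9.06% of tested genes were, and Clec4a3 was higher, where 5.9% were. The medians were -0.57 over the receptors and -0.07 over all tested genes. The 2-week libraries of each MHCII level are shared with the comparisons against control or against the other MHCII level.

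Between MHCII-high and MHCII-low cells, 7 of the 9 receptors were near each other at 2 weeks, from -0.26 for Clec4a3 to 0.44 for Clec4d, with Clec4a1 and Clec10a apart from them. Without overlap were Clec4a1, Clec10a and Clec4d at 2 weeks, where 12.9% of tested genes were in that direction, and Clec4a1 and Clec10a at 4 weeks, where 8.26% were. The median over the 9 was 0.10 at 2 weeks and 0.08 at 4 weeks, beside 0.08 and -0.03 over all tested genes. At 4 weeks Clec4d differed by 1.16 ± 0.45 (adjusted p 0.21) and Clec4a2 by 0.56 ± 0.27 (adjusted p 0.34), both with overlap. Without 4-week MHCII-high replicate 2, Clec4d passed (1.66, adjusted p 0.04). Clec4e differed by 0.10 ± 0.25 and 0.05 ± 0.25 between the MHCII classes at 2 and 4 weeks, values within their standard errors.

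Whether the high-against-low difference itself changed from 2 to 4 weeks was tested by the interaction, the difference at 4 weeks minus that at 2 weeks. No receptor passed, from -0.64 ± 0.80 for Clec4a1 to 0.73 ± 0.63 for Clec4d, and the smallest adjusted p was 0.93. For Clec4e the interaction was -0.06 ± 0.36, so the falls in the MHCII classes were not shown to differ. With limma 0 of the 9 had an unadjusted p under 0.05. Of all tested genes limma called 0 (987 at an unadjusted p under 0.05), edgeR 0 and DESeq2 60.

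**Figure D3:**
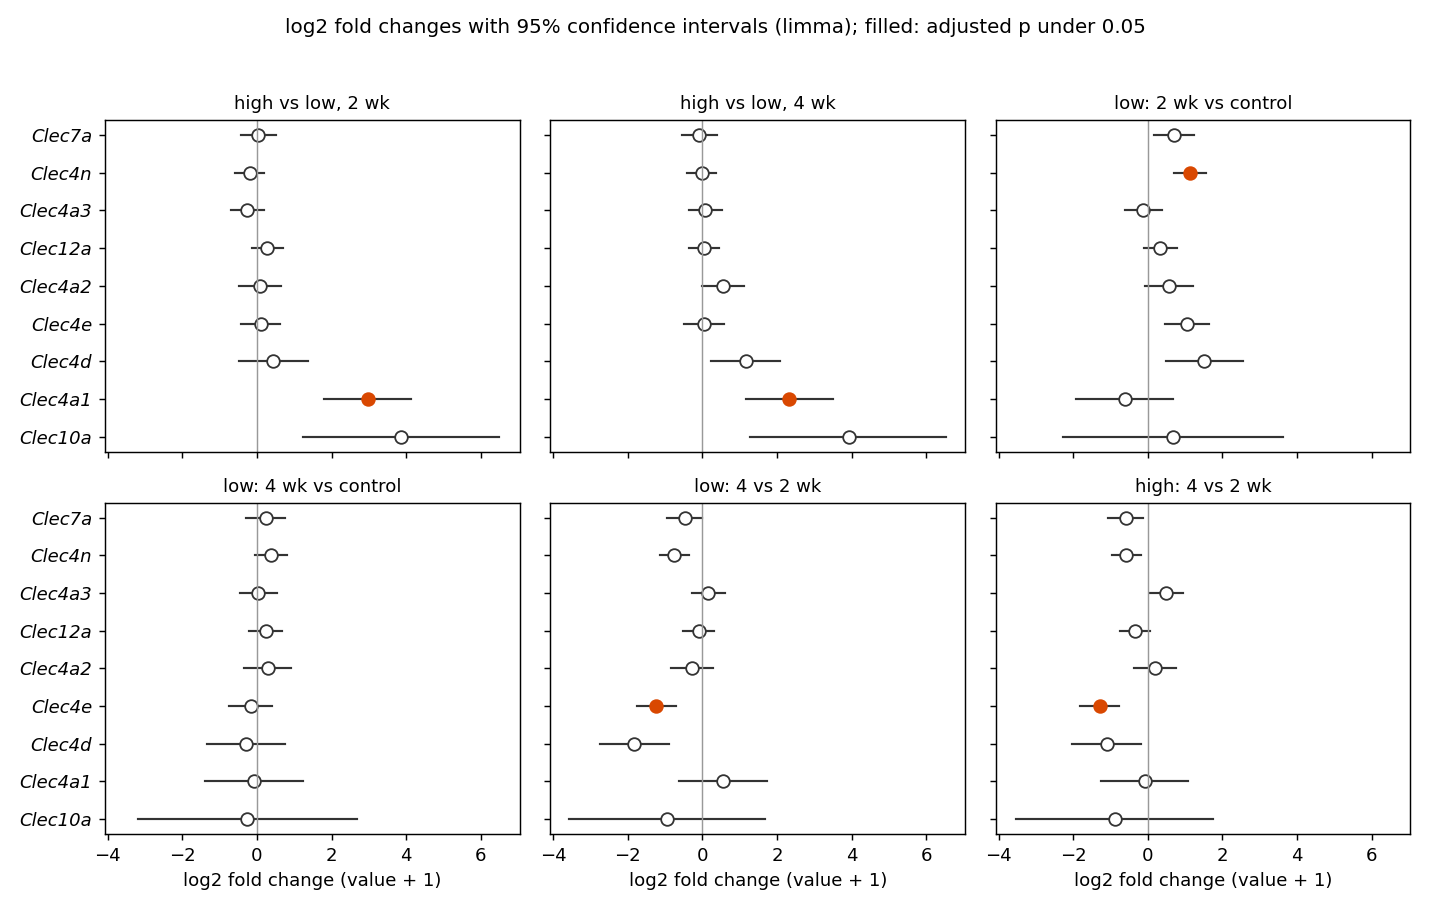
Log2 fold change on the value + 1 scale (points) with its 95% confidence interval (lines) for each receptor in the 6 comparisons by MHCII level, against control and between weeks, with filled points for those that passed an adjusted p of 0.05. Clec4a1 is called in both MHCII comparisons, Clec4n at 2 weeks against control, and Clec4e at 4 against 2 weeks in both MHCII classes.

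The 6 receptors Clec4a1, Clec4a3, Clec4a2, Clec4n, Clec4d and Clec4e lie in this order within 368 kb of chromosome 6 on GRCm38, from the Clec4a1 start at 122921848 to the Clec4e end at 123289870. Clec4e is on the reverse strand and the other five are on the forward strand, so that Clec4d and Clec4e face each other tail to tail, 6.5 kb apart. Both of these neighbours, and Clec4n, had their highest group means in the 2-week groups, and Clec4a2 had its highest in 4-week MHCII-high cells. Clec4a1 and Clec4a3, with 17.9 kb between them, had their lowest group means in 2-week MHCII-low and 2-week MHCII-high cells, respectively. Neither passed the test between weeks. For Clec4a1 the differences from 2 to 4 weeks were 0.56 ± 0.56 in MHCII-low cells (adjusted p 0.98) and -0.08 ± 0.56 in MHCII-high cells (adjusted p 0.97). Of the 3 other genes of this stretch, Clec4a4 was at 0 to 26.7, Clec4b1 at 50.8 to 258.1 and Clec4b2 at 0 to 0.4 normalized counts. Clec12a (129342691 to 129365303, forward) and Clec7a (129461591 to 129472779, reverse) lie farther along chromosome 6, and Clec10a lies on chromosome 11 (70156197 to 70170834, forward). Within the chromosome 6 stretch, neighbouring genes of this family did not overlap, with gaps of 6.5 to 34.9 kb between them.

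**Figure D4:**
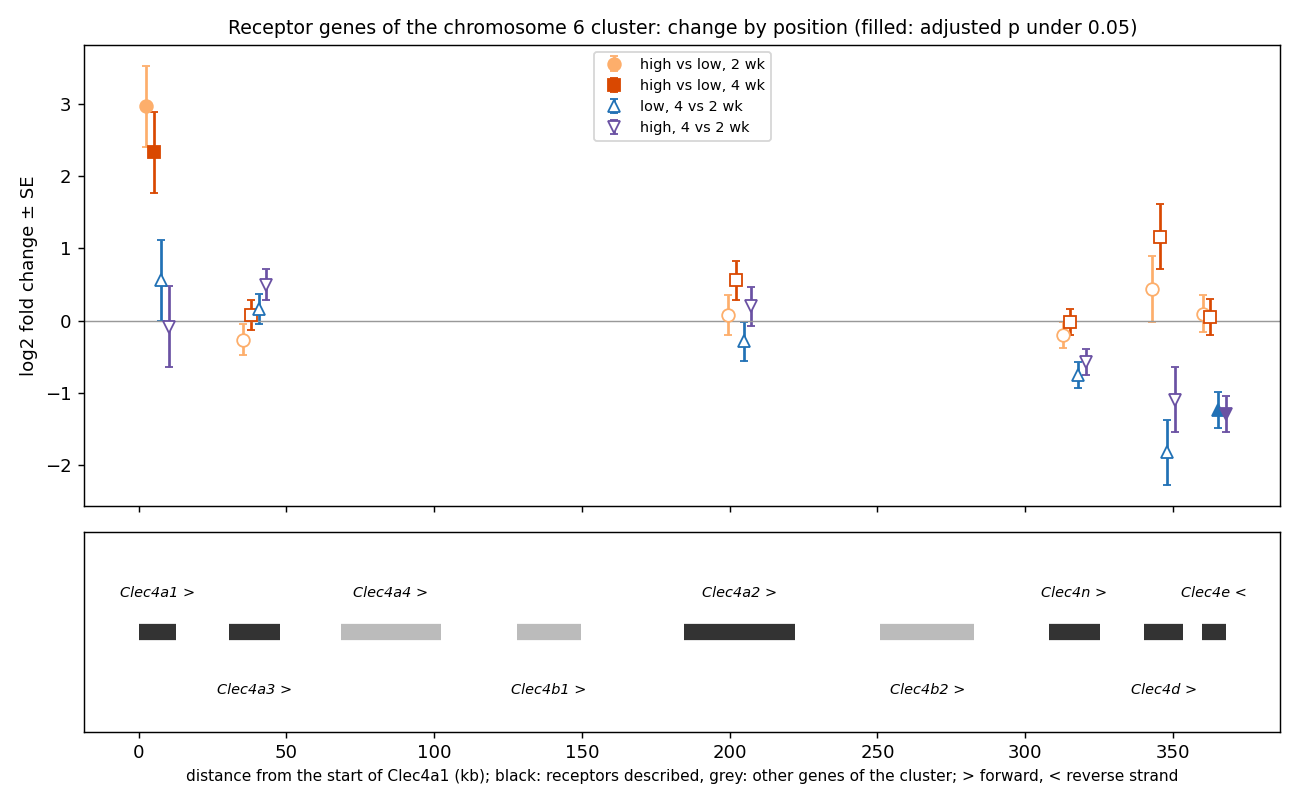
Top, log2 fold change ± SE of the 6 receptors in 4 comparisons by distance from the Clec4a1 start in kb, filled where the adjusted p was under 0.05. Bottom, the 9 genes of the stretch to scale with their strand, the 3 undescribed ones in grey. Clec4a1, at the left end, is called by MHCII level and Clec4e, at the right end, by time.

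Of 22 adaptor and kinase genes that act behind these receptors, 3 passed as higher in MHCII-high cells at each time, namely Nfatc2, Blnk and Src, where 2.29% of all tested genes passed in that direction at 2 weeks and 1.96% at 4 weeks. Nfatc2, a calcium-activated transcription factor, was at 457.9 to 878.8 normalized counts in MHCII-high and 42.2 to 216.1 in MHCII-low libraries, with differences of 2.45 (adjusted p 0.0029) and 2.90 (adjusted p 0.00052). Blnk, an adaptor best known from B cells, differed by 3.62 (adjusted p 0.005) and 4.28 (adjusted p 9e-04), and Src, a tyrosine kinase, by 3.45 (adjusted p 0.0038) and 2.73 (adjusted p 0.023). Without 4-week MHCII-high replicate 3, the 4-week values were 2.59 for Nfatc2 (adjusted p 0.0039), 4.18 for Blnk (0.005) and 2.58 for Src (0.068), so the Src call was lost. The summed B and T lymphocyte markers were 285.8 to 971.4 in MHCII-high and 35.2 to 276.1 in MHCII-low libraries, and their part in the Blnk values was not tested. Against control, Blnk (4.52, adjusted p 0.0021) and Tyrobp, an adaptor chain akin to Fcer1g (0.72 ± 0.18, adjusted p 0.044), were higher in 2-week MHCII-low cells, where 1.48% of all tested genes were. In the other comparisons none of the 22 passed. The list's median difference lay between -0.22 and 0.15 over the 7 comparisons.

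The 3 genes at the core of the pathway, named for their role and not by a test, passed in no comparison. Fcer1g was at 12695.4 to 25799.7 normalized counts over the 14 libraries, and its 2-week MHCII-low libraries (16965.2 to 25799.7) lay above the controls (12695.4 and 13657.3), a difference of 0.74 ± 0.20 at an adjusted p of 0.066. Syk was at 11930.3 to 16532.1 and Card9 at 379.7 to 955.2, and their largest differences were -0.24 ± 0.14 and -0.11 ± 0.32. None of 12 inhibitory phosphatases and regulators passed in any of the 7 comparisons, in which 0 to 499 of the 17390 tested genes passed.

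Of 40 other C-type lectins, 31 were tested. In MHCII-high cells 5 passed as higher at 2 weeks (2.29% of all tested genes did), among them Colec12, a scavenger receptor with a collagen stalk (2.04, adjusted p 0.0032), and Sftpa1 (2.02, adjusted p 0.011). Mgl2, the paralog of Clec10a (4.84, adjusted p 0.015), and Klrk1 (5.4, adjusted p 0.019) also passed, with Klrk1 at 0 to 0.6 normalized counts in 2-week MHCII-low cells. Of 5 epithelial markers, 2 passed as higher in the same comparison, Sftpc (2.03, adjusted p 0.038) and Sftpb (1.55, adjusted p 0.036). The part of epithelial cells in the Sftpa1 values was not tested. At 4 weeks 5 of these lectins passed as higher (1.96% of all tested genes did), with Colec12 at 2.64 (adjusted p 0.00019) and Mgl2 at 7.11 (adjusted p 0.00048). Next by p were Cd93 (0.97, adjusted p 0.0048) and Cd209a (5.66, adjusted p 0.011). Without 4-week MHCII-high replicate 3, Colec12 was at 2.29 (adjusted p 0.0018) and Mgl2 at 7.60 (adjusted p 9e-04). Cd93 was then at 0.88 (adjusted p 0.025) and Cd209a at 6.87 (adjusted p 0.0033). Mgl2 was at 217.9 to 603.6 normalized counts in MHCII-high and at most 44.7 in MHCII-low libraries. Against control, 4 passed as higher in 2-week MHCII-low cells (1.48% of all tested genes did), namely Cd93 (1.57, adjusted p 0.00012), the endocytic receptor Ly75 (1.54, adjusted p 0.00031), Colec12 (2.22, adjusted p 0.0045) and the Tyrobp-coupled receptor Clec5a (1.38, adjusted p 0.042). The same 4 were lower at 4 than at 2 weeks in MHCII-low cells (0.748% of all tested genes were), from -1.09 for Ly75 (adjusted p 0.0058) to -1.66 for Colec12 (adjusted p 0.032). In MHCII-high cells Ly75 fell by 0.89 (adjusted p 0.034) and Cd209a rose by 5.22 (adjusted p 0.036) from 2 to 4 weeks. There 0.759% of all tested genes passed as lower, and 186 genes passed in either direction, 29.0% of them higher. Cd209a was at 0 to 1.5 normalized counts at 2 weeks and 8.5 to 139.6 at 4 weeks, so its fitted change depends on the added count of 1. Without 4-week replicate 3 the Ly75 call was lost (-0.89, adjusted p 0.053) and Cd209a was at 6.42 (adjusted p 0.012). These 4 genes were compared with the 2-week MHCII-low libraries in both directions, so their rise and fall share those libraries.

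Of 18 genes known as targets of this pathway, mostly cytokines and chemokines with Ptgs2, Nlrp3, Egr2 and Egr3, 15 were tested. Il1b, an inflammatory cytokine induced by this pathway, was at 423.6 and 1044.3 normalized counts in the controls, 1228.3 to 2011.4 in 2-week and 386.3 to 556.5 in 4-week MHCII-low cells. It was at 1820.1 to 2419.9 in 2-week and 661.8 to 1146.5 in 4-week MHCII-high cells. From 2 to 4 weeks Il1b fell by 1.69 in MHCII-low (adjusted p 0.0039) and by 1.37 in MHCII-high cells (adjusted p 0.028, and 0.013 without 4-week replicate 3), the only gene of the list to pass in either. In these comparisons 0.748% and 0.759% of all tested genes passed as lower. In 2-week MHCII-high against MHCII-low cells, Ccl2 was higher (3.81, adjusted p 0.0089) and Egr2, a transcription factor, lower (-0.62, adjusted p 0.025). There 2.29% of all tested genes passed as higher, and 499 genes passed in either direction. In the other 4 comparisons none of the 15 passed.

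For each receptor, the tested gene outside the 9 with the most alike pattern was found as the smallest root mean square (RMS) difference of centred log2 values over the 14 libraries, among 17381 genes. These values are a description. For Clec4e the closest were Ctsl, a lysosomal protease (0.29), and Msr1, a scavenger receptor (0.30), where Clec4e's own RMS deviation was 0.67. For Clec4n they were Kynu (0.17) and Atp6v1a (0.18) beside 0.44, and for Clec7a Sdcbp (0.17) and Mpeg1 (0.17) beside 0.41. For Clec4d they were 1700096K18Rik (0.40) and Anpep (0.46) beside 0.99. For Clec4a1 they were Rnf150 (0.54) and Fnbp1l (0.55) beside 1.40, and for Clec10a Traf1 (0.94) and Lifr (1.03) beside 2.38. The steadier receptors Clec4a2 (Cr1l and Sub1, both 0.25, beside 0.42), Clec4a3 (Stk17b 0.16 and Sh2d1b1 0.17, beside 0.30) and Clec12a (Lamp1 and Pira2, both 0.17, beside 0.27) had little variation to match. Libraries, depth and scaling are shared by all these genes.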

How the data were processed

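RNA of sorted mouse lung cells was sequenced in 14 libraries. Per the submitters' processing notes, STAR and DESeq2 were used with the build mm10. Tool versions, the program that counted reads and the gene annotation are not named in the labels or the file. Per the file headers, the signal the authors deposited is normalized counts per gene. The percent of G and C in each gene and its exon length are also columns as deposited by the authors. The normalized counts are whole multiples of 1 step per library, the worth of 1 read (0.3895 to 2.2374 normalized counts), and dividing by it gave whole reads within the rounding of 0.05 for 99.96% to 100% of low values. These recovered reads fed the count tests, in which edgeR called 432 genes between MHCII-high and MHCII-low cells at 2 weeks. Their 95% counting limits cover counting error only, since no molecular identifiers are described.

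The test was limma (3.58.1, R 4.3.3) with eBayes trend, applied to log2(value + 1). A single fit held the 14 libraries and gave each group its own coefficient. A gene was tested if 2 or more libraries reached 10 normalized counts, and Benjamini-Hochberg adjustment ran over all 17390 of them in each of 7 comparisons. Calls required an adjusted p under 0.05. Where no tool is named, limma gave the p. Fold changes on this scale understate the change of low genes. A ± after a log2 difference is its standard error. The script was tested on simulated data. Alternatives were edgeR 4.0.16 (quasi-likelihood, TMM) and DESeq2 1.42.0 on recovered reads, TMM scaling before limma, an added count of 5, no filter, a filter of 50, the mitochondrial ribosomal RNA share as a covariate, removal of the GC trend (loess, span 0.3), a replicate block, and leaving out each library.

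All 9 receptors are named in every comparison. From each list other than the marker lists, genes past the threshold are named, at most 4 per comparison by smallest p. Fcer1g, Syk and Card9 are named for their role. From the marker lists, sums and selected genes are given, and not every called marker is named. The 2 most alike genes were found by the smallest RMS difference. The members and lists were chosen with earlier results of these data known. Marker sums used lists for resident alveolar macrophages, monocytes, dendritic cells, neutrophils, eosinophils (at most 403.9 normalized counts, with Prg2 at 0 in all libraries), B and T lymphocytes and epithelium (9371 to 31695). Sequences are from RefSeq (GRCm38.p6), and gene spans from the deposited table, identical for the 9 receptors to GENCODE vM21.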

Additional observations from a re-analysis of the deposited data

How the results depend on the processing

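Each of 63 receptor differences (9 receptors in 7 comparisons) was recomputed under 23 alternatives, 1449 values in all. Of these 1338 kept their direction and their side of the threshold, 13 lost a call, 22 gained one and 76 changed sign. No sign change touched a call, and none of the values that changed sign exceeded 0.94 in size in the reported fit. The Clec4a1 call at 2 weeks held throughout. Numbers of receptors called moved from 1 to 2 (DESeq2) or 0 (no filter, GC trend removed) between MHCII-high and MHCII-low cells at 4 weeks, from 1 to 3 (DESeq2, GC trend removed) or 2 (TMM scaling, filter of 50) between 2-week MHCII-low cells and control, and from 1 to 3 (DESeq2, filter of 50) or 0 (no filter) between 4-week and 2-week MHCII-low cells. The gains were Clec10a; Clec4e, Clec4d and Clec7a; and Clec4d and Clec4n in these comparisons. Leaving out 1 library gave 0 to 2, 0 to 3 and 0 to 3 receptors in the same 3 comparisons, and 0 to 1 between 4-week and 2-week MHCII-high cells. The cause was not tested.

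Counts of all genes called moved by more than 1.5 times as follows. Between MHCII-high and MHCII-low cells at 2 weeks the 499 became 1055 with DESeq2, 316 without a filter, 207 with the ribosomal RNA covariate and 1572 with the GC trend removed. At 4 weeks the 434 became 911 with DESeq2 and 282 without a filter, and the interaction's 0 became 60 with DESeq2. The 332 of 2-week MHCII-low cells against control became 665 with DESeq2, 213 with the covariate and 832 with the GC trend removed. At 4 weeks the 8 became 2 with edgeR, 74 with DESeq2, 65 without a filter, 2 with the covariate and 4 with the GC trend removed. Between 4 and 2 weeks, 149 became 320 with DESeq2 in MHCII-low cells, and 186 became 112 with edgeR, 638 with DESeq2, 103 without a filter and 380 with the GC trend removed in MHCII-high cells. Leaving out 1 library gave 203 to 624 and 266 to 480 between MHCII levels, 0 to 2 for the interaction, 127 to 406 and 1 to 17 against control, and 95 to 183 and 64 to 299 between weeks.

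Removing the GC trend shifted the median of all tested genes by -0.33 between MHCII levels at 2 weeks, by 0.33 in the interaction, by 0.31 and 0.21 against control at 2 and 4 weeks and by 0.23 between weeks in MHCII-high cells, while TMM, edgeR and DESeq2 moved no median by over 0.1. The share of calls that were higher moved with it from 79.8% to 22.5% between MHCII levels at 2 weeks (68.8% with edgeR), from 77.7% to 93.8% at 2 weeks against control and from 29.0% to 76.3% between weeks in MHCII-high cells (41.1% with DESeq2). It moved from 12.8% to 24.1% with DESeq2 between weeks in MHCII-low cells. Without a filter on low values it moved from 77.7% to 58.1% at 2 weeks and from 75% to 10.8% at 4 weeks against control. With the ribosomal RNA covariate it was 90.8% and 89.0% between MHCII levels at 2 and 4 weeks, where the 4-week share was 78.6% before.

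With the GC trend removed, signs changed for Clec4a2 (-0.30), Clec4e (-0.23), Clec7a (-0.43) and Clec12a (-0.11) between MHCII levels at 2 weeks and Clec12a (-0.08) at 4 weeks, for the interaction of Clec4e (0.23), Clec7a (0.17) and Clec12a (0.03), for Clec4a3 at 2 weeks (0.18) and Clec4a1 (0.16) and Clec4e (0.05) at 4 weeks against control, and for Clec4a1 between weeks in MHCII-high cells (0.13). Between MHCII levels Clec7a turned to -0.03 at 2 weeks with edgeR and with TMM scaling and to -0.15 with the covariate. At 4 weeks Clec4a3 (-0.03), Clec4e (-0.09) and Clec12a (-0.01) turned with edgeR, Clec4e (-0.02) with DESeq2, Clec4e (-0.02) and Clec12a (-0.02) with TMM scaling, and Clec4e (-0.02) and Clec4n (0.01) with the covariate. Between weeks in MHCII-high cells Clec4a1 turned to 0.08 with edgeR and 0.11 with DESeq2, and with an added count of 5 the Clec10a interaction was -0.21.

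Leaving out 1 library changed signs among values near 0. Between MHCII levels at 2 weeks the ranges were -0.05 to 0.23 for Clec4a2, -0.09 to 0.23 for Clec4e and -0.12 to 0.17 for Clec7a. At 4 weeks they were -0.18 to 0.23 for Clec4a3, -0.23 to 0.34 for Clec4e, -0.17 to 0.18 for Clec4n, -0.44 to 0.10 for Clec7a and -0.13 to 0.18 for Clec12a. For the interaction they were -0.33 to 0.24 for Clec4e, -0.48 to 0.07 for Clec7a and -0.99 to 1.21 for Clec10a. Against control they were -0.32 to 0.07 for Clec4a3 and -0.95 to 2.31 for Clec10a at 2 weeks, and -0.42 to 0.29 for Clec4a1, -0.11 to 0.30 for Clec4a3, -0.71 to 0.01 for Clec4d, -0.47 to 0.10 for Clec4e and -1.90 to 1.37 for Clec10a at 4 weeks. Between weeks they were -0.51 to 0.07 for Clec4a2, -0.04 to 0.42 for Clec4a3 and -2.10 to 0.10 for Clec10a in MHCII-low cells, and -0.61 to 0.32 for Clec4a1 in MHCII-high cells.

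Libraries of equal replicate number deviated together by correlations of 0.01 to 0.11 over 6 pairs of the same week, 1 of them over 0.1. The labels do not say whether equal numbers mark the same animal, and these correlations cannot exclude it. The numbers were not taken as pairs in the reported fit. A fit with the replicate number as a block called 0 receptors in place of 1 between MHCII levels at 4 weeks (Clec4a1, 2.33 in both fits, adjusted p 0.056) and 2 in place of 1 between 4-week and 2-week MHCII-low cells, and 16 genes in place of 8 between 4-week MHCII-low cells and control, where Clec4a3 was at -0.01. Depth limits Clec10a most, with at most 22 reads in any MHCII-low library.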
